A study of Mus musculus with 8 samples.

Results

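The replication-dependent histone genes were taken as all autosomal protein-coding genes of GENCODE release M21 (mouse build mm10) whose symbols begin with Hist1h, Hist2h, Hist3h or Hist4h. There were 67 such genes among 20807 autosomal protein-coding genes. They encode 6 linker H1 histones, 18 H2A, 18 H2B, 12 H3 and 13 H4 histones, with 10 genes on chromosome 3, 1 on chromosome 6, 2 on chromosome 11 and 54 on chromosome 13. The data were peaks of H3K27ac (acetylation of lysine 27 on histone H3, found at promoters and enhancers in use) mapped by chromatin immunoprecipitation sequencing in 4 breast tumors. The 2 control tumors came from PyMT;Rag1KO mice, and the 2 test tumors from K14-TSLPtg;PyMT;Rag1KO mice, each tumor from a different mouse. Every mouse was on the Balb/c background and had received wild-type CD4+ T cells by injection when 4 weeks old. PyMT is a mammary oncogene driven by the MMTV promoter, loss of Rag1 leaves the host without T and B cells of its own, and K14 (keratin 14) is the promoter behind the cytokine TSLP. Tumors were taken at terminal size, and in the labels the control tissue is called tumor and the test tissue cyst. The comparison asked whether histone gene acetylation differed between tumors of mice with and without the TSLP transgene when both had received CD4+ T cells.

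Replication-dependent histone genes supply the histones that package newly made DNA, and they are transcribed in S phase. They are short, lack introns for the most part, lie in clusters with H2A and H2B genes often placed head to head, and are transcribed at nuclear bodies organised by NPAT. Their messages end in a stem-loop that is bound by SLBP rather than in a poly(A) tail. In dividing tissue these loci are known for heavy transcription during DNA synthesis.

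The sequences of these genes carried the family's known elements. Of the 67 genes, 62 were matched to RefSeq promoter sequences on GRCm38 (the assembly also called mm10), each running from 250 bases before to 50 bases after the start. Motifs were searched on both strands, and any overlap between motifs was allowed. The CCAAT box was present in 53 of the 62 promoters (85.5%), against 37.9% of the 27025 promoters in the table, and TATAAA in 35 (56.5%), against 14.2%. The octamer ATTTGCAT, a site for POU2F1, was present in 13 (21.0%, against 1.75%), of which 7 belonged to H2A and 6 to H2B genes. The H1 box AAACACA was found in 9 (14.5%, against 7.14%), including 5 of 6 H1 genes. GGTCCG was found in 13 (21.0%, against 8.39%), including 11 of the 12 matched H4 genes. The E2F-type word TTTCGCGC was present in 9 promoters (14.5%, against 0.318%), 5 of H2A and 4 of H2B genes, and the related word TTTGGCGC in 0, against 0.537%. The promoter sequences of genes placed head to head overlap. A motif in the shared part is counted for both genes, so these counts are not of separate stretches of DNA. The median GC content was 45.3% over the histone promoters and 52.7% over the table, and the median observed-to-expected ratio of CpG was 0.748 against 0.389.

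Reference sequences are given for 3 of the 13 head-to-head pairs, of which the testis pair had little acetylation, for an H1 and an H4 promoter at each end of the coverage range described later, and for an H3 promoter at the upper end. Lower case is the reference and capitals mark the motifs named above, on either strand.
The stretch between the start sites of a fully acetylated H2A and H2B pair, with its flanks, had the CCAAT box, the TATAAA word and the octamer.
Hist1h2ae and Hist1h2bg, chr13:23571195-23571420, plus strand: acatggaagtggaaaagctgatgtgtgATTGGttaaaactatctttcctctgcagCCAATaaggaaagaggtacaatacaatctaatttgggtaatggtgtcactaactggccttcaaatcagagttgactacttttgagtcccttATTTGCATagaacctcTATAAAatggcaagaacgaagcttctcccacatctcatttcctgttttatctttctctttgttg
Another fully acetylated H2A and H2B pair, in the cluster on chromosome 3, held the same 3 motifs.
Hist2h2ac and Hist2h2be, chr3:96220855-96221142, plus strand: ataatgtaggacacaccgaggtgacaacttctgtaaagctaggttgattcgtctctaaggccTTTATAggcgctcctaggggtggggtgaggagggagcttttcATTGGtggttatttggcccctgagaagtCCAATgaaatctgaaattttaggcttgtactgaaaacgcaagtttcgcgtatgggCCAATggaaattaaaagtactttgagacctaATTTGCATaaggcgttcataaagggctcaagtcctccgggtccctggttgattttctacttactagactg
The testis-specific pair, in which no peak reached either start, held them too, with the H1 box.
Hist1h2ba and Hist1h2aa, chr13:23934159-23934458, plus strand: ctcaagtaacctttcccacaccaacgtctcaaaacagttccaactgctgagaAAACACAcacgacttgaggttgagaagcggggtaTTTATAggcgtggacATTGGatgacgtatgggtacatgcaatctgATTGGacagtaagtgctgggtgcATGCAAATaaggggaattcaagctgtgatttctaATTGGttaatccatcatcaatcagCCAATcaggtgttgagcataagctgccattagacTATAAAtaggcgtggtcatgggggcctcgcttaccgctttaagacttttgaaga
An acetylated H1 promoter is shown with the H1 box and CCAAT.
Hist1h1c, chr13:23738557-23738856, plus strand: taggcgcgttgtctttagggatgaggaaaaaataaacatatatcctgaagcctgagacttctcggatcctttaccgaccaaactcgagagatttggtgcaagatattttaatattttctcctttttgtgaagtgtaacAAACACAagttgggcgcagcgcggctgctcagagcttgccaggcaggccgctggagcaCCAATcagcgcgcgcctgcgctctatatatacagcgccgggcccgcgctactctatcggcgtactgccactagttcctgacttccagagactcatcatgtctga
The testis-specific H1 promoter, without a peak at its start, has the same 2 motifs.
Hist1h1t, chr13:23695561-23695860, plus strand: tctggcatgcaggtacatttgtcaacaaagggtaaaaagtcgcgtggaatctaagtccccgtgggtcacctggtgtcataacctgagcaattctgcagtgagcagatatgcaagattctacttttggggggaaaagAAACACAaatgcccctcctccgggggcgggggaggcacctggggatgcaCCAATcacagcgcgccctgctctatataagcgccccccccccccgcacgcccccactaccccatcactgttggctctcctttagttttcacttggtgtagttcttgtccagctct
An H3 promoter within peaks over its whole window held CCAAT in 4 places.
Hist1h3e, chr13:23562336-23562635, minus strand: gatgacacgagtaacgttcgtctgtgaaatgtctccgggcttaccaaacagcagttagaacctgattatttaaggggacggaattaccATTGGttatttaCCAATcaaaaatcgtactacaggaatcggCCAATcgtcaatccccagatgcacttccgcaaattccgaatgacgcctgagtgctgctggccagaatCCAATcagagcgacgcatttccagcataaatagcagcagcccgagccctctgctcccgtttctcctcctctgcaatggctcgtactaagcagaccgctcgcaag
An H4 promoter within peaks over its whole window held TATAAA and GGTCCG.
Hist1h4i, chr13:22041313-22041612, minus strand: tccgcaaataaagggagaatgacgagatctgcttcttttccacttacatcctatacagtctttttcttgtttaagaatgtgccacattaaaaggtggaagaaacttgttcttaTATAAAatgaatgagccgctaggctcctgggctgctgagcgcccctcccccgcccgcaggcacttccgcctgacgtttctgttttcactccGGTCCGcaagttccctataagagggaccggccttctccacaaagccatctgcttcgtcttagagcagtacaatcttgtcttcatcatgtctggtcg
The H4 promoter with the least coverage of its class held GGTCCG.
Hist1h4b, chr13:23756687-23756986, plus strand: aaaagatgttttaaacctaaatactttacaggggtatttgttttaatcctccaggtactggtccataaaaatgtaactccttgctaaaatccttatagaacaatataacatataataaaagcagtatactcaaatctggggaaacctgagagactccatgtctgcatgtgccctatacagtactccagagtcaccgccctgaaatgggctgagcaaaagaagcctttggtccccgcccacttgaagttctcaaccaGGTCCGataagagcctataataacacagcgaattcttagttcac

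The histone stem-loop was looked for as a run of 16 bases within 200 bases after the stop codon. It was present in 65 of the 67 genes (97%) and in 4 of 20586 other genes searched (0.0194%). Hist2h2be and Hist1h2an were the 2 histone genes without a match. It began 21 to 58 bases after the stop codon, with a median of 30. There were 8 distinct sequences, of which the commonest 3 are shown, all in capitals, since this element is the known mark of a replication-dependent message.
In 41 genes: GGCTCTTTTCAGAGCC
In 9 genes: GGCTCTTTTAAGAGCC
In 8 genes: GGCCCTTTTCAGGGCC

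Promoters were defined as 1 kb either side of the annotated start, a 2-kb window. Of the 67 histone promoters, 66 had a peak in control tumor 1, 65 in control tumor 2, 67 in test tumor 1 and 66 in test tumor 2. Nearly every histone promoter window thus held a peak in both groups, where an overlap of 1 bp was enough. The start itself lay in a peak for 60, 60, 60 and 61 of the 67 genes (89.6, 89.6, 89.6 and 91.0%). Over all genes these shares were 38.8, 41.4, 43.4 and 39.6%. Of all autosomal protein-coding promoters, 55.0, 55.4, 55.5 and 53.2% had a peak in the same order of tumors. In all 4 tumors together, 65 histone promoters (97%) had a peak, against 50.9% of all promoters, and 0 histone promoters lacked a peak in every tumor, against 41.4%. The mean number was 65.5 ± 0.707 (SD, n = 2) in control and 66.5 ± 0.707 (SD, n = 2) in test tumors, a difference of 1 promoter (two-sided exact permutation test, p = 0.667). With 2 tumors against 2 the smallest p that this test can give is 0.333. Of the 17 comparisons of this kind made on the histone genes, 9 reached it, and the smallest p after Benjamini-Hochberg adjustment was 0.630 (exact permutation test). No difference between the groups could therefore pass a threshold of 0.05, and the values below are descriptions.

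A promoter was called control-only when both control tumors and neither test tumor had a peak in its window, and test-only in the opposite case. Among all genes, 0.548% were control-only and 0.317% test-only. Among the 67 histone genes, 0 were control-only and 0 were test-only. The 2 histone promoters without a peak in every tumor were those of Hist1h1d and Hist1h1t, both in the H1 class.

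Peaks also filled most of the histone windows. The share of the window lying in peaks, here called coverage, averaged 88.2% in control tumor 1, 88.0% in control tumor 2, 89.5% in test tumor 1 and 89.5% in test tumor 2. Both test tumors were above both control tumors, by 1.33 percentage points between group means (two-sided exact permutation test, p = 0.333). Without Hist1h1d and Hist3h2ba the difference was 0.653 points, and with 500 bp either side of the start it was 0.769 points. Over all genes the mean coverage was 34.4, 35.5, 37.0 and 34.4%, so that the groups overlapped there. However, 30 of the 67 histone windows were in peaks at every base in all 4 tumors (44.8%), against 3.65% of all genes, and coverage cannot show a difference there. Read depth is not known for these lists, and a deeper library can give more and wider peaks.

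**Figure D1:**
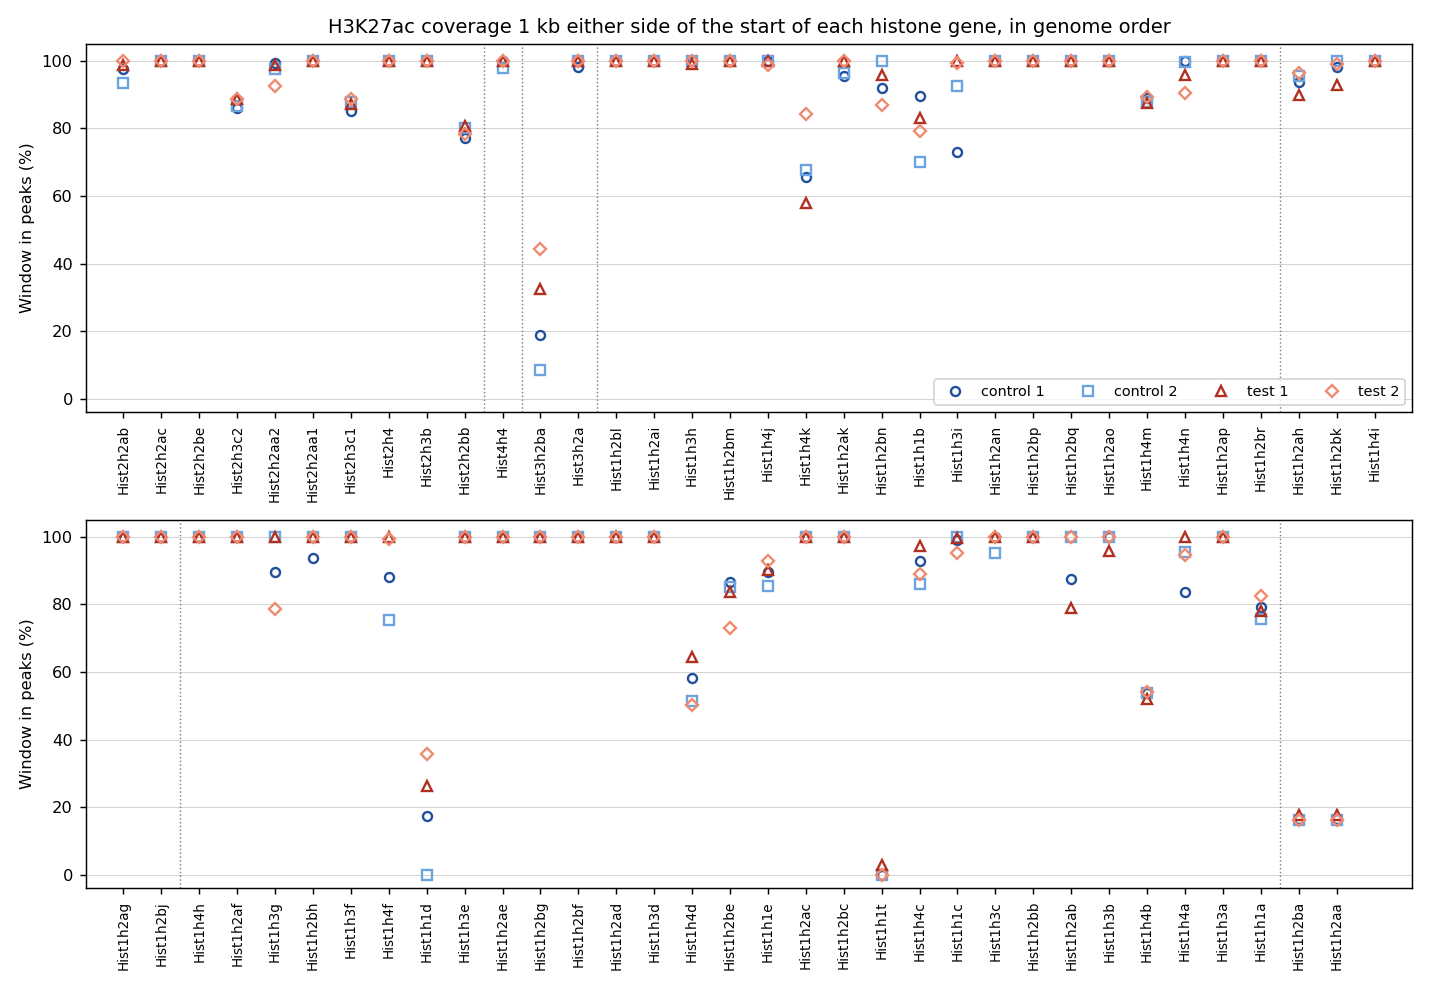
Coverage of the 2-kb promoter window in peaks (%, vertical axis) for each of the 67 histone genes in genome order, with 1 symbol per tumor and dotted lines between clusters. Most genes sit near 100% in all 4 tumors, and the low genes are Hist3h2ba, Hist1h1d, Hist1h1t, Hist1h2ba and Hist1h2aa.

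Coverage was highest for H3 and H2A genes and lowest for H1 genes. The 12 H3 genes averaged 94.5 and 96.9% in control tumors 1 and 2, and 97.6 and 96.3% in test tumors 1 and 2. The 18 H2A genes averaged 93.8 and 94.4% in control and 93.6 and 94.7% in test tumors, a difference of 0.0417 points (exact permutation test, p = 1). The 18 H2B genes averaged 87.9 and 88.3% in control and 89.1 and 88.8% in test tumors. The 13 H4 genes averaged 87.1 and 85.8% in control and 88.9 and 88.5% in test tumors. The 6 H1 genes averaged 62.5 and 55.2% in control and 63.3 and 64.3% in test tumors, a difference of 4.94 points. The groups did not overlap for H1, H2B and H4 and overlapped for H2A and H3. The order in H2B and in H1 did not hold once 1 gene was left out. The other 17 H2B genes without Hist3h2ba averaged 92.0 and 93.0% in control and 92.4 and 91.4% in test tumors, so that the groups overlapped and the difference turned to -0.613 points. The other 5 H1 genes without Hist1h1d averaged 71.5 and 66.2% in control and 70.7 and 69.95% in test tumors, which also overlapped. Without Hist1h4f, the H4 gene with the largest difference, the other 12 H4 genes averaged 87.0 and 86.6% in control and 87.9 and 87.6% in test tumors, which did not overlap. The H1 mean included both genes without a peak in every tumor, and its order did not hold at RefSeq starts, where the class averaged 75.4 and 68.3% in control and 74.0 and 74.3% in test tumors. The H1 difference at GENCODE starts was 8.61 points without control tumor 1 and 1.27 points without control tumor 2. With 500 bp either side of the start the H4 groups overlapped, at 94.2 and 94.1% in control and 94.7 and 93.2% in test tumors, as did the H2B groups with peaks of at least 1 kb, at 86.0 and 87.0% in control and 86.3 and 85.4% in test tumors.

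**Figure D2:**
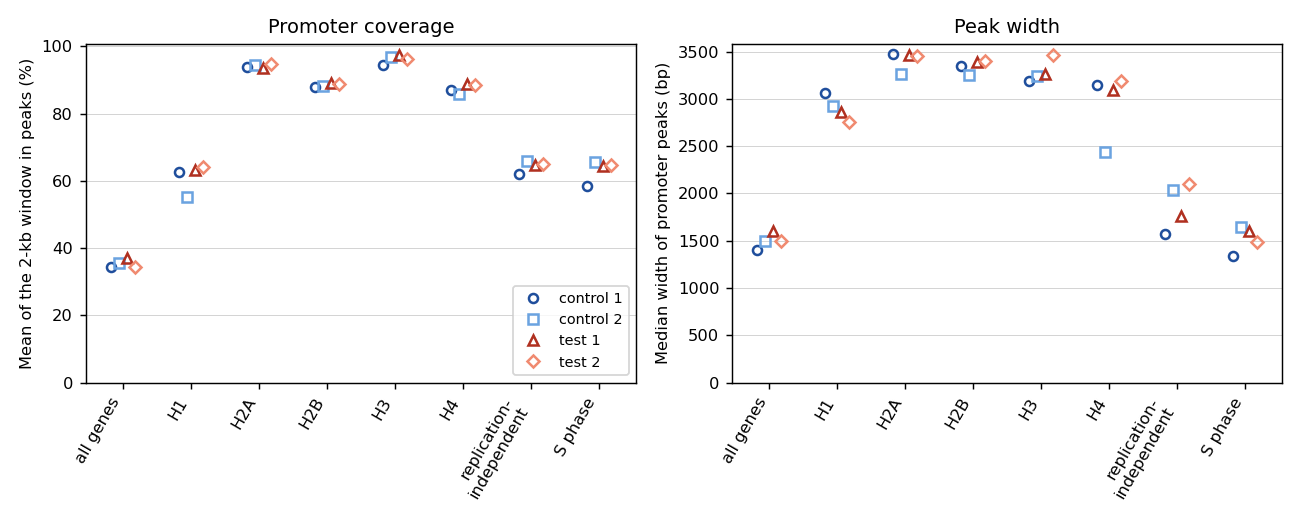
Left, mean coverage of the 2-kb promoter window (%), and right, median width in bp of the widest peak at each promoter, for all genes, the 5 histone classes, the replication-independent histone genes and a list of S phase genes, with 1 symbol per tumor. The core histone classes lie above 85% coverage in every tumor, while all genes lie between 34.4 and 37.0%.

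The peaks at histone promoters were wide. The median width of the widest peak at each histone promoter was 3228 bp in control tumor 1, 3242 bp in control tumor 2, 3126 bp in test tumor 1 and 3323 bp in test tumor 2. The corresponding medians over all genes with a promoter peak were 1406, 1493, 1603 and 1495 bp. The histone values overlapped between the groups, with a difference of -10.5 bp (exact permutation test, p = 1). The sign of this difference turned under several settings, for example to 108.5 bp with peaks of at least 1 kb. Neighbouring histone genes shared these peaks. The 67 promoters were reached by 42 distinct peaks in control tumor 1, 38 in control tumor 2, 41 in test tumor 1 and 39 in test tumor 2, and their median widths were 2779, 2874, 2807 and 2730 bp. Between 50 and 53.8% of these peaks reached at least 2 histone promoters, where 12.2 to 12.8% of all promoter peaks reached at least 2 promoters. The widest held the promoters of Hist1h2ae, Hist1h2bg, Hist1h2bf, Hist1h2ad and Hist1h3d, 5 genes in 1 interval in every tumor. It measured 6991 bp in control tumor 1, 6775 bp in control tumor 2, 7353 bp in test tumor 1 and 6933 bp in test tumor 2, and in control tumor 1 it ran over chr13:23570153-23577143. Since 51 of the 67 windows shared bases with another histone window, the 67 values come from 38 separate stretches of DNA.

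Acetylation extended to both sides of the start. At 350 bp downstream of the start, 95.5% of histone genes lay in a peak in each of the 4 tumors, against 45.7 to 48.7% of all genes. At 50 bp upstream the share was between 88.1 and 89.6% for histone genes. The peak that held the start reached a median of 1568, 1754, 1596 and 1608 bp upstream of it at histone genes, against 626 to 659 bp at all genes, and 1341, 1428, 1345 and 1320 bp downstream, against 937 to 1042 bp. The excess over all genes was thus larger on the upstream side. Of the 67 genes, 26 were in a head-to-head pair, and the part of such partners in the upstream reach was not tested. In control tumor 1 the upstream median was 1486 bp for the 18 H2A genes, 12 of them paired. For the 18 H2B genes, 13 of them paired, it was 2231.5 bp. For H3, H4 and H1 genes it was 1878, 1260 and 887.5 bp.

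**Figure D3:**
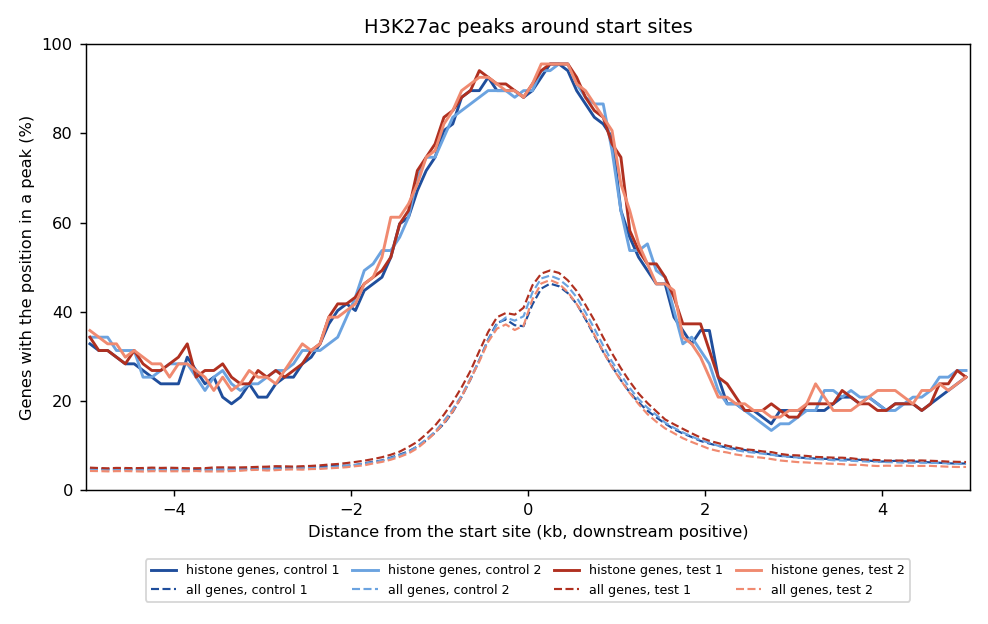
Percentage of genes with a given position in a peak (vertical axis) against distance from the annotated start in kb (horizontal axis, bins of 100 bp), with solid lines for the 67 histone genes, dashed lines for all genes and 1 color per tumor. The 4 solid lines run together and reach 95.5% just downstream of the start, while the dashed lines peak below 50%.

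There were 13 pairs of histone genes on opposite strands with starts at most 1 kb apart and pointing away from each other, 12 of them an H2A with an H2B gene and the other Hist1h2bh with Hist1h3f. Their starts were 176 to 660 bp apart, with a median of 268 bp. The windows of a pair share 1340 to 1824 bp, so a peak in one nearly always reaches the other. A peak that held both starts is a stricter measure, and 12 of the 13 pairs had one in all 4 tumors, while the testis pair had one in 0 tumors. Further, 9 of the 13 pairs had both windows wholly in peaks in every tumor. Hist1h2ae and Hist1h2bg, whose shared promoter holds the octamer and CCAAT boxes, had the closest starts, 176 bp apart, and 100% coverage in each tumor. Hist2h2ac and Hist2h2be, 239 bp apart, were also at 100% in each tumor, in peaks of 3545, 3267, 3534 and 3536 bp. The pair Hist1h2ba and Hist1h2aa, which are expressed in the testis, differed from the other pairs. Both genes had 16.4% coverage in control tumor 1, 16.2% in control tumor 2, 17.8% in test tumor 1 and 16.3% in test tumor 2. Their peak was 328, 323, 356 and 326 bp wide, lay over the body and 3′ end of Hist1h2ba, and ended 139, 143, 119 and 134 bp short of its start. The octamer, CCAAT and TATAAA were present in this pair's promoter as in both acetylated pairs whose sequences are given.

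Coverage of the H1 genes ranged from near 0 to near 100%. Hist1h1c, an H1 gene used in most tissues, had 99.2, 100, 99.7 and 95.2% coverage in control tumors 1 and 2 and test tumors 1 and 2. Hist1h1e had 89.7, 85.4, 90.1 and 92.8%, so that both test tumors were above both control tumors by 3.90 points between means, which was 6.03 points without control tumor 1, 1.77 points without control tumor 2 and 2.53 points without test tumor 2, and which turned to -1.45 points with 2.5 kb either side of the start. Hist1h1b had 89.7, 70.1, 83.1 and 79.2%, and Hist1h1a had 79.2, 75.6, 78.1 and 82.6%, both overlapping between groups. Hist1h1t, the testis H1, had coverage of 0% in both control tumors and in test tumor 2, and 2.75% in test tumor 1. That value came from a peak of 173 bp, at chr13:23696759-23696931, that began 945 bp past the start and beyond the annotated end of the gene. Hist1h1d had 17.4 and 0% in control and 26.3 and 35.8% in test tumors around its GENCODE start. Its RefSeq start lies 1770 bp further downstream, and the window there was covered by 95.0 and 78.5% in control and by 90.5 and 96.5% in test tumors. The low value of Hist1h1d thus held for the GENCODE start only, and at the RefSeq start the groups overlapped.

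The start itself lay in a peak in all 4 tumors for 60 of the 67 genes. In 6 it lay outside peaks in every tumor, and in Hist3h2ba it lay inside a peak in test tumor 2 alone. Besides the H1 genes Hist1h1d and Hist1h1t and the testis pair, the 6 included the H3 genes Hist2h3c1 and Hist2h3c2 of chromosome 3, near-identical copies. Each had peaks on both sides of a gap over its start, of 296, 242, 257 and 223 bp at Hist2h3c1 and 280, 267, 226 and 225 bp at Hist2h3c2. Of the 50-base words in their 2-kb windows, 78.6 and 77.6% occurred elsewhere in the genome. The median over the histone genes was 19.3%, and 10 genes were above 50%. How the authors treated reads that fit several places is not given in the sources used here, and its part in the gaps was not tested.

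A gene was called test higher when both test tumors had more coverage than both control tumors, and control higher in the opposite case. Among the 12190 genes with coverage in any tumor, 20.9% were test higher and 9.67% control higher. Among the histone genes, 8 of 67 were test higher (11.9%) and 2 control higher (2.99%). When any 1 tumor was left out, 13 to 15 histone genes were test higher (19.4 to 22.4%), against 30.8 to 44.3% of all genes under the same settings, and 4 to 10 were control higher (5.97 to 14.9%), against 15.9 to 30.7%. Leaving out windows wholly in peaks in all 4 tumors, where no difference can show, 8 of 37 histone genes (21.6%) were test higher, against 22.3% of all genes, and 2 (5.41%) were control higher, against 10.3%. With such windows left out, the share of test-higher histone genes was near the background. The median difference over those 37 genes was 1.10 points, and over all such genes 1.65 points.

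The largest difference among the test-higher genes was at Hist3h2ba, an H2B gene at chr11:58948920-58949533. Its coverage was 18.9% in control tumor 1, 8.60% in control tumor 2, 32.4% in test tumor 1 and 44.3% in test tumor 2. Both test tumors were above both control tumors, by 24.6 points between means of 13.8 ± 7.28 and 38.3 ± 8.41% (SD, n = 2 each). With peaks of at least 1 kb its coverage difference was 0, since the peaks behind these values were narrow. Control tumor 1 had 1 of 378 bp, control tumor 2 had 1 of 172 bp, test tumor 1 had 2 of 166 and 481 bp, and test tumor 2 had 1 of 885 bp. Its neighbour Hist3h2a, an H2A gene with the same annotated start position as Trim17, had 98.2, 100, 100 and 100% coverage.

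Hist1h1d, at chr13:23553262-23560686, came next, by 22.3 points at the GENCODE start. Hist1h4f, an H4 gene to its left at chr13:23551258-23551648, had 88.2 and 75.4% in control and 100 and 99.5% in test tumors, a difference of 18.0 points. Without control tumor 2 the differences were 13.6 points at Hist1h1d and 11.6 points at Hist1h4f. These calls share an edge. The peak at Hist1h4f ended at position 23552480 of chromosome 13 in control tumor 1, 23552193 in control tumor 2, 23552746 in test tumor 1 and 23552817 in test tumor 2, and it reached into the window of Hist1h1d in all but control tumor 2. Hist1h3i, an H3 gene at chr13:21782960-21783370, had 73.0 and 92.7% in control and 100 and 99.5% in test tumors, a difference of 17.0 points, which was 7.10 points without control tumor 1 and 26.8 points without control tumor 2. In control tumor 1 its window held separate peaks of 552 and 1404 bp, and in the other tumors 1 peak of 2252 to 2905 bp. The remaining test-higher genes were Hist1h2ak, with a difference of 4.00 points that turned to -1.20 points at its RefSeq start, Hist1h1e, Hist2h2ab (3.75 points) and Hist2h3c2 (2.40 points), of which Hist2h2ab and Hist2h3c2 were named after their values were seen. The Hist2h3c2 call ended with peaks within 1 kb joined, at 100% in all 4 tumors, and with 2.5 kb either side of the start, where the groups overlapped at 68.6 and 65.0% in control and 68.1 and 68.7% in test tumors. The Hist2h2ab difference was 5.73 points without control tumor 1 and 1.77 points without control tumor 2. With 500 bp either side of the start, the differences at Hist1h3i, Hist1h4f, Hist1h2ak, Hist1h1e and Hist2h2ab were 0, so that they lay in the outer parts of the window, while that at Hist3h2ba was 48.9 points. In that window the Hist1h1d call ended, at 0 and 0% in control and 0 and 5.6% in test tumors. The Hist2h3c2 call held there, at 72 and 73.3% in control and 77.4 and 77.5% in test tumors, a difference of 4.8 points.

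The control-higher genes were Hist1h2be and Hist1h4n. Hist1h2be, an H2B gene whose annotated start lies inside Hist1h1e, had 86.5 and 85.2% in control and 83.6 and 73.2% in test tumors, a difference of -7.53 points, which was -12.8 points without test tumor 1 and -2.30 points without test tumor 2. Its stem-loop lies far off, at chr13:23585531-23585546, so that the window measured lay mostly over another histone gene. It shared 1 peak of 2753 to 2958 bp with Hist1h1e in every tumor, although the genes were called in opposite directions. Its left edge was at 23620393 and 23620419 in control and at 23620452 and 23620661 in test tumors, and its right edge at 23623350 and 23623265 in control and at 23623358 and 23623413 in test tumors, so that both edges lay further to the right in the test tumors. Hist1h4n, an H4 gene at chr13:21831767-21832196, had 100 and 99.8% in control and 95.9 and 90.4% in test tumors, a difference of -6.75 points, which was -4.0 points without test tumor 2. Of the words in the Hist1h4n window, 92.0% occurred elsewhere in the genome. With 500 bp either side of the start both calls ended, with 100% in all 4 tumors at Hist1h4n, and 100% in both control tumors and 100 and 96.3% in test tumors at Hist1h2be.

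The least covered genes that had a peak in any tumor were Hist1h1t, Hist1h2ba, Hist1h2aa, Hist1h1d and Hist3h2ba, with means over the 4 tumors of 0.688, 16.7, 16.7, 19.9 and 26.03%. At the other end, Hist2h2ac, Hist2h2be, Hist2h2aa1, Hist2h4 and Hist2h3b led, in genome order, the 30 genes at 100% in every tumor. Among these 30 were 11 of 18 H2A and 11 of 18 H2B genes, 5 of 12 H3, 3 of 13 H4 and 0 of 6 H1 genes.

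Members within 100 kb of each other were joined into clusters, with 1 kb added at each end. This gave 6 clusters of at least 2 genes, covering 434.9 kb in all, and the lone gene Hist4h4 on chromosome 6. Peaks covered 26.9% of the 6 clusters in control tumor 1, 27.3% in control tumor 2, 27.5% in test tumor 1 and 27.5% in test tumor 2, against 2.92, 2.72, 2.92 and 2.57% of the autosomes. Both test tumors were above both control tumors by 0.382 points (exact permutation test, p = 0.333). The clusters held 60 and 58 peaks in control and 54 and 53 in test tumors, a difference of -5.50 (exact permutation test, p = 0.333), which turned to 1 with peaks of at least 1 kb, 36 and 37 in control and 36 and 39 in test tumors. The covered length was 119.4 and 119.5 kb in test and 116.8 and 118.8 kb in control tumors. With peaks within 1 kb joined, the share was 28.1 and 28.4% in control and 28.3 and 28.3% in test tumors and the intervals 45 and 46 in control and 44 and 46 in test tumors, so that both overlapped (exact permutation test, p = 1). The share of cluster bases outside histone promoters also overlapped, at 9.74 and 10.3% in control and 10.09 and 10.09% in test tumors. The difference in covered share of the whole clusters was 0.158 points without control tumor 1 and 0.606 points without control tumor 2. It was 0.892 points with peaks of at least 1 kb and 0.849 points with members joined within 200 kb. Over the autosomes the test tumors also had fewer intervals, 64438 and 58328 against 68404 and 66585. Of the covered cluster bases, 92.5, 85.6, 93.2 and 92.4% lay in peaks that reached a histone promoter.

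The densest cluster was that of Hist1h2ah, Hist1h2bk, Hist1h4i, Hist1h2ag and Hist1h2bj, at chr13:22034164-22044676, where peaks covered 65.3 and 69.3% in control and 65.6 and 64.2% in test tumors. The cluster on chromosome 3 with 10 genes, at chr3:96218865-96271132, was covered by 34.8 and 34.1% in control and 35.7 and 35.6% in test tumors. The 18 genes at chr13:21714763-21838530 lay in a cluster covered by 25.7 and 26.5% in control and 26.3 and 27.8% in test tumors. The cluster with most genes, 29 at chr13:23530050-23765406, was covered by 24.2 and 24.5% in control and 24.5 and 23.7% in test tumors. The pair Hist3h2ba and Hist3h2a, at chr11:58947920-58957830, had the largest difference, with 27.1 and 29.4% in control and 34.2 and 36.4% in test tumors, 7.01 points between means. The wide peak there, at Hist3h2a, was 2311 and 2746 bp in control and 2739 and 2725 bp in test tumors, which overlapped. The other peaks of this cluster were the narrow ones at Hist3h2ba described above. The testis pair at chr13:23932773-23935851 was covered by 10.7 and 10.5% in control and 11.6 and 10.6% in test tumors. Around Hist4h4, at chr6:136800553-136805415, coverage was 48.8 and 48.2% in control and 43.7 and 46.5% in test tumors, a difference of -3.40 points. The right edge of this region cut the only peak there in all but control tumor 2. The whole peak was 2632 and 2346 bp wide in control and 2402 and 2474 bp in test tumors, which overlapped. Coverage of the Hist4h4 promoter window was 100 and 97.85% in control and 100 and 100% in test tumors, a difference of 1.075 points. The groups did not overlap for the chromosome 3, Hist3 and Hist4 regions, and they overlapped for the 4 clusters of chromosome 13. Each of the non-overlapping differences had p = 0.333 by the exact permutation test.

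**Figure D4:**
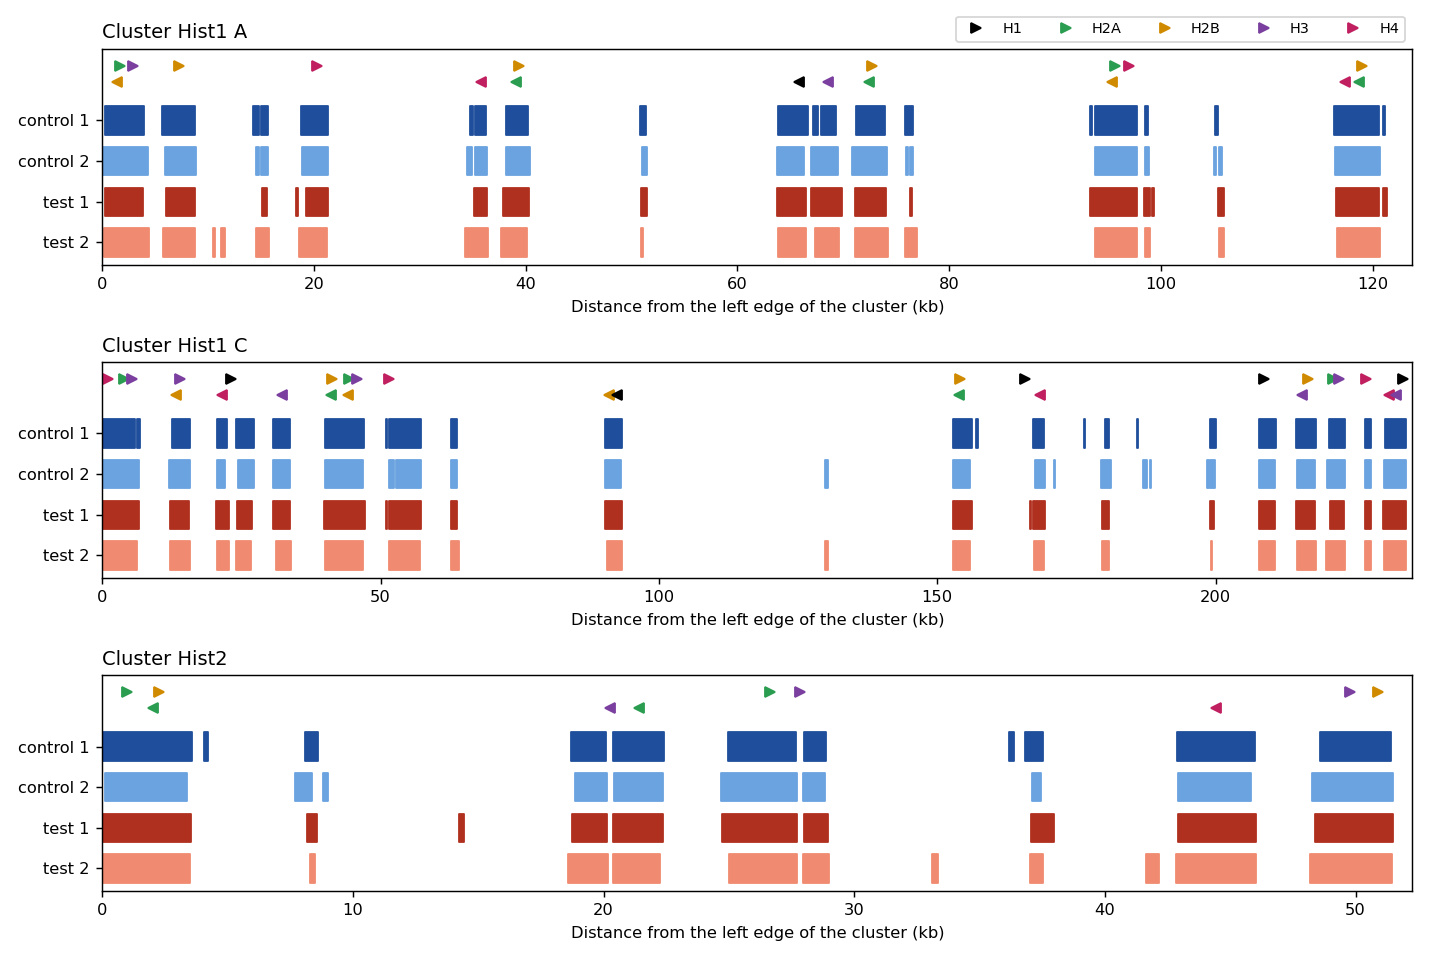
Peaks in each tumor (filled bars, 1 row per tumor) over the clusters of 18 genes (Hist1 A) and 29 genes (Hist1 C) on chromosome 13 and of 10 genes (Hist2) on chromosome 3, against distance in kb from the left edge of the cluster. Triangles above mark the start of each histone gene and point in the direction of transcription, with the color giving the class, and the broad peaks stand at the same places in all 4 tumors.

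Peaks of the 4 tumors that overlapped were joined into regions. Of all 89238 autosomal regions, 3.42% were control-only and 1.47% test-only. The 6 clusters held 68 regions, of which 0 were control-only and 0 test-only. Of the 68, 47 were present in all 4 tumors (69.1%), against 38.2% of autosomal regions, 0 in 3 tumors, 3 in 1 control and 1 test tumor, and 18 in 1 tumor. Of the 39 regions at histone promoters, 37 were present in all 4 tumors, and of the 29 elsewhere in the clusters, 10 were. The clusters also hold the starts of 3 other protein-coding genes, Bola1, Trim17 and Hfe, each with a promoter peak in all 4 tumors. The start of Hfe, an iron-handling gene of the MHC class I family, lay in 1 of those 10 regions, 1689 bp wide at chr13:23709532-23711220.

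Genes that make, process or carry histones were compared as lists. Of 16 autosomal genes of histone gene transcription and 3′ processing, 11 had a promoter peak in all 4 tumors (68.8%) and 1 in none. Npat, which drives histone gene transcription, had 88.5 and 85.8% coverage in control and 88.5 and 79.9% in test tumors. Casp8ap2, a partner of NPAT, had 44.1 and 69.7% in control and 47.5 and 67.6% in test tumors. Slbp, which binds the stem-loop, had 79.8 and 80.1% in control and 72.7 and 75.7% in test tumors, and was the only control-higher gene of the 15 with coverage. The 4 test-higher genes, named after their values were seen, were Ccne1, Lsm11, Cpsf2 and Eri1. These were 26.7% test higher and 6.67% control higher, near the shares over all genes of 20.9 and 9.67%, and the list's median difference was 2.65 points, against 1.04 points over all genes.

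Replication-independent histone genes, which are used outside S phase as well, had less coverage than the replication-dependent genes. Of 11, 9 had a promoter peak in all 4 tumors, and their mean coverage was 62.0 and 65.9% in control and 64.6 and 65.1% in test tumors. H3f3b, which encodes H3.3, had 100% in both control tumors and 95.2 and 100% in test tumors, and H2afz, which encodes H2A.Z, had 75.3 and 100% in control and 74.7 and 75.3% in test tumors. Of the 9 with coverage, 2 were test higher (H2afv and H2afj, 22.2%) and 0 control higher, beside 20.9 and 9.67% over all genes. The list's median difference was 1.575 points, against 1.04 points over all genes. Of 12 histone chaperone genes, 12 had a peak in all 4 tumors, and 2 were test higher (Chaf1b and Npm1, 16.7%) and 1 control higher (Nasp, 8.33%), beside 20.9 and 9.67% over all genes. Of 20 S phase and proliferation genes, 20 had a peak in all 4 tumors, with mean coverage of 58.6 and 65.5% in control and 64.4 and 64.7% in test tumors. In that list 1 gene was test higher, Mki67 (the Ki67 proliferation marker), with 67.2 and 75.6% in control and 84.5 and 83.7% in test tumors, and 3 were control higher (Gins2, Top2a and Aurka), which makes 5% and 15% beside the same 20.9 and 9.67%. The genes named for their order in these lists, other than Mki67, were also chosen after their values were seen. The histone genes' coverage was above that of the S phase list in every tumor.

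The tissue label was checked with marker promoters. Of 8 luminal epithelial markers, 8, 7, 8 and 7 had a promoter peak in control tumors 1 and 2 and test tumors 1 and 2, with mean coverage between 62.1 and 73.0%. Of 5 basal or myoepithelial markers the numbers were 3, 1, 3 and 0, with mean coverage of 20.8, 2.44, 19.4 and 0%, and Trp63 and Myh11 were at 0 in every tumor. Of 6 leukocyte markers they were 3, 2, 3 and 2, with mean coverage of 19.8, 19.6, 20.9 and 13.7%, and Cd3e, Csf1r and Cd79a were at 0. Of 4 endothelial markers they were 2, 2, 1 and 0, with mean coverage of 17.3, 6.29, 2.08 and 0%, and Kdr and Tie1 were at 0. Of 5 fibroblast markers they were 2, 2, 1 and 0, with mean coverage of 8.13, 9.89, 1.05 and 0%, and Col1a2 and Lum were at 0. Endothelial and fibroblast coverage was thus lower in both test tumors, where the histone coverage was slightly higher, and the part of cell make-up in the histone values was not tested. In whole tumors, fewer cells of a type and less acetylation per cell cannot be told apart.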

How the data were processed

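H3K27ac peaks of 2 control and 2 test tumors were analysed, and matched input libraries, for which no peak list was used, were not. Per the labels and the study's methods, the authors aligned reads to mm10 with BWA, extended them to 200 bp, and called peaks with MACS2 at a q-value of 0.01 in each tumor against its own input, so tumors were not pooled. The deposited lists give intervals in bp, from 59762 to 69861 per tumor, already cleaned and merged according to their names, with no signal, score or read count. Read depth and the treatment of reads mapping to several places are not given in the sources used here, so the precision of a coverage value is known only from the spread between tumors, which come from different mice.

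Groups followed the genotype in the labels, and the tumor number only names a tumor. Starts were the 5′ ends of GENCODE M21 genes. A peak overlapping the window of 1 kb either side by at least 1 bp counted as present. Sequences came from RefSeq tables and the GRCm38 genome. All 27025 promoter sequences equalled the genome, 52 of the 62 matched histone promoters had a RefSeq start within 50 bp of the GENCODE start, and 1 over 1000 bp away. Of the planned list genes, Cstf2 is not autosomal and was left out. Group means were compared over tumors by a two-sided exact permutation test. Alternatives were other windows, peak widths, overlaps, equal peak numbers, joined peaks, leaving out each tumor, and, added after seeing the data, RefSeq starts, leaving out repeated windows, cluster bases outside promoters, leaving out Hist1h1d and Hist3h2ba together, and leaving the gene with the largest difference out of the H1, H2B and H4 means. Genes were named by rule: control-only or test-only genes, the 5 per direction with the largest coverage difference among non-overlapping genes, the 5 highest and 5 lowest in mean coverage, the H1 genes, and Npat, Slbp, Casp8ap2, Mki67, H3f3b and H2afz. All other genes in the text were named after their values were seen, as illustrations. The members and lists were chosen with earlier results of these data known. The scripts were tested on simulated intervals. Python 3.11.15, numpy 2.4.6, numba 0.67.0 and matplotlib 3.10.9 were used.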

Additional observations from a re-analysis of the deposited data

How the results depend on the processing

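Of 300 values recomputed under alternatives, 244 counted as kept: for the differences that answer a comparison only the sign was held, for counts the value within 1.5 times, and for single classes and genes a move below 1 SD between tumors. Among them sizes still moved, and the H2A difference of 0.0417 points turned to -0.279 at RefSeq starts, -0.00139 with peaks of at least 1 kb, -0.264 without control tumor 1 and -0.542 without test tumor 2. The H3 difference of 1.27 points was 0.0875 without control tumor 1 and became larger without control tumor 2. With peaks within 1 kb joined, the cluster share difference of 0.382 points was 0.0731 and the interval difference -0.500. The difference in median peak width at histone promoters, -10.5 bp, became 88.5 bp with 500 bp either side of the start, 108.5 bp with peaks of at least 1 kb, 52 bp with equal peak numbers (59762 per tumor), 17.75 bp with peaks within 1 kb joined and 56.25 bp with an overlap of at least 200 bp, and leaving out each tumor in turn gave -109 to 88 bp (88 bp without test tumor 1). The difference in peak intervals in the clusters, -5.50, became 1 with peaks of at least 1 kb, which are the wider part of the list. With equal peak numbers it was -2, from 54 and 54 in control and 51 and 53 in test tumors. With members joined within 200 kb it was -2.5. With 500 bp either side of the start, 3 of 66 histone genes with coverage were test higher (4.55%) and 0 control higher, against 14.1 and 7.90% of the 11900 genes with coverage there. Fewer tumors make non-overlap easier by construction, and the test-higher and control-higher counts were 15 and 5 without control tumor 1 (32.4 and 25.1% of all genes with coverage), 13 and 4 without control tumor 2 (39.8 and 19.99%), 14 and 8 without test tumor 1 (30.8 and 30.7%) and 15 and 10 without test tumor 2 (44.3 and 15.9%). Test-only promoters went from 0 to 1 without control tumor 1 (Hist1h1d; 0.692% of all genes) and to 1 without test tumor 2 (Hist1h1t; 1.01%). Among single classes and genes, the H4 difference became -0.158 points with 500 bp either side, the H2B difference -0.622 points with peaks of at least 1 kb and -0.613 points without Hist3h2ba, the Hist1h1e difference -1.45 points with 2.5 kb either side, and the Hist1h2ak difference -1.20 points at the RefSeq start. The cause of these changes was not tested. No paired analysis was possible because the labels give the groups no shared replicate numbers. Unknown read depth limits every width and coverage value, and peak strength was not measured.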

Other observations

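The stem-loop search also matched 4 genes outside the histone clusters, chosen for naming after their values were seen. H2afx, which encodes H2A.X and is known to have messages of both kinds, had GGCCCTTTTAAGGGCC, 46 bases after its stop codon. Its promoter coverage was 78.5 and 85.5% in control and 82.7 and 94.2% in test tumors. Btbd10, Tcl1b1 and Ppm1b held a match 120, 149 and 130 bases after the stop codon.

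Between the histone clusters of chromosome 13, peak coverage ranged from none to above the autosomal share of 2.57 to 2.92%. The stretch of 195.6 kb between the clusters of 18 and 5 genes was covered by 5.02 and 6.84% in control and 7.02 and 10.1% in test tumors. The stretch of 1485 kb between the clusters of 5 and 29 genes was covered by 1.44 and 1.62% in control and 1.97 and 1.66% in test tumors. In both stretches the groups did not overlap (two-sided exact permutation test, p = 0.333 for each, the smallest this design allows). The 167.4 kb between the cluster of 29 genes and the testis pair held 0 peaks in every tumor. The 3 stretches hold no histone gene of this family.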
